A study of Mus musculus with 9 samples.

Results

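The genes described here are 36 genes that cells switch on when they sense type I interferon. They were followed across 3 populations of phagocytes sorted from mouse Peyer's patches, which are clusters of lymphoid follicles in the wall of the small intestine. The populations were macrophages that express lysozyme (LysoMac) and lysozyme-expressing dendritic cells with C5aR, the receptor for a complement fragment (C5aR+ LysoDC), or without it (C5aR- LysoDC), with 3 arrays each and 9 in all. The members were a proposed list of gene names, and each was read from the transcript cluster (a set of probes summarised together) that the platform annotation assigns to that symbol alone. This gave 32 measured genes of 36, among 22180 genes that could be read this way. Dtx3l, Gbp2 and Ifi27l2a lie only on clusters that carry a second symbol, and Ifi44 was not matched to a cluster, so these 4 are not analysed here. Of the 32, only Ifi35 had a second cluster named for it alone. Parp9 also lies on the cluster shared with Dtx3l, which was not used.

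Cells were digested from the patches, enriched for CD11c on beads and sorted with antibodies against BST2, C5aR, CD4, CD11c, MHC class II and SIRP. The labels name no mouse strain, age or treatment, and they do not say whether arrays within a population hold cells of different mice. The p-values therefore rest on the spread between these samples, and that spread may be technical. One member, Bst2, encodes a target of the sort antibodies, and its level may depend on the gates, which the sources used here do not give. None of the measured macrophage markers (9) and conventional dendritic cell markers (10) lay below the median of every array. In these sorted samples fewer cells of a type and less RNA per cell cannot be told apart. All values are log2 expression values, so a difference of 1 is a 2-fold difference.

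Type I interferon binds its receptor on the cell surface and activates kinases that phosphorylate STAT proteins, and STAT2 with its partners IRF9 and another STAT then enters the nucleus. This complex binds a short DNA element, the interferon-stimulated response element, in front of many interferon-induced genes. Products of the genes listed here sense viral RNA, block viral replication or tune the response itself. Such genes are known to be expressed at a low tonic level in many tissues even without infection.

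The letters of that element can be read in the promoters of several members, and 6 stretches are printed for members on which the results turn. Isg15, Ifit1, Ifit3, Rsad2 and Irf7 have arrays described in full or belong to the most typical induced families. Samd9l was the 1 member called between populations, and that call was lost when any single array was left out. Each is 180 bases long, ends at the base before the start site and is given 5′ to 3′ on the gene's own strand, from RefSeq on build GRCm38.p6. Capitals mark the letters searched for, GAAA followed by any 2 bases and GAAA again, or their reverse complement. The stretches lie at chr4:156200819-156200998, minus strand, chr19:34640709-34640888, plus strand, chr19:34583349-34583528, plus strand, chr12:26456453-26456632, minus strand, chr7:141266425-141266604, minus strand and chr6:3399572-3399751, minus strand.

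Isg15: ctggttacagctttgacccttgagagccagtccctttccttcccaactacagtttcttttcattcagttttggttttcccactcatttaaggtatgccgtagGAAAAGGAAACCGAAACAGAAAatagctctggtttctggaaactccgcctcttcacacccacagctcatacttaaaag

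Ifit1: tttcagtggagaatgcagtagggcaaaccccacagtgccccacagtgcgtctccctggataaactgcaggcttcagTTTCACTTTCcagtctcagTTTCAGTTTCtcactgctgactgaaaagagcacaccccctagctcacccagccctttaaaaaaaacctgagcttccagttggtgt

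Ifit3: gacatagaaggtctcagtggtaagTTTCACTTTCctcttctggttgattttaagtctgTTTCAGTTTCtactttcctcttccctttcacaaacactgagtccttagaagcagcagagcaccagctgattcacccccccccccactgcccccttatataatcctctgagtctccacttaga

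Rsad2: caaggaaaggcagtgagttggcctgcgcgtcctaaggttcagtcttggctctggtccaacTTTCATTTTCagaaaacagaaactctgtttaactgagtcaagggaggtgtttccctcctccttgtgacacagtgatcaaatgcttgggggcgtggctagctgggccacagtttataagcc

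Irf7: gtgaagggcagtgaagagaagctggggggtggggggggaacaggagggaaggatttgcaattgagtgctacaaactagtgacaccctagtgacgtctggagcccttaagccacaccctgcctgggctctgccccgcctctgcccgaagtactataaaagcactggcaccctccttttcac

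Samd9l: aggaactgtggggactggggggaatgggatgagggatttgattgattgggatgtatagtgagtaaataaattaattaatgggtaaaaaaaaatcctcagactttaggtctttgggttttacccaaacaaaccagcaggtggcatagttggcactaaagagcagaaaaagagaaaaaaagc

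Isg15 holds 3 matches that overlap each other, Ifit1 and Ifit3 hold 2 each on the opposite strand, Rsad2 holds 1, and Irf7 and Samd9l hold none. The RefSeq promoter windows, from 250 bases before to 50 bases after the start site, covered 23 of the 32 measured members, and 11 of these (47.8%) held these letters on either strand, against 3.99% of 27025 genes with a window. The 11 were Ifih1, Isg15, Oas3, Trim30a, Ifitm3, Bst2, Stat2, Rsad2, Eif2ak2, Ifit3 and Ifit1, and 5 of them (Isg15, Ifitm3, Bst2, Ifit3 and Ifit1) held more than 1 match, against 0.266% of all genes with at least 2. TTCNNNGAA, the core of the element bound by STAT dimers, was found in 7 of the 23 (30.4%), namely Isg20, Ifitm3, Bst2, Irf1, Ifi35, Eif2ak2 and Ifit2, against 9.55% of all genes. These matches describe letters in a window and are not mapped binding sites.

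Few interferon response genes passed the test between populations. Set against LysoMac, 1 member, Samd9l, rose in C5aR- LysoDC, and none fell (limma, adjusted over all 33793 clusters, threshold 0.05; 1.13% of all clusters were called higher and 0.405% lower). Set against LysoMac, 0 members were called in C5aR+ LysoDC, where 0.0503% of all clusters were higher and 0.00% lower. Set against each other, the LysoDC populations gave 0 calls among members, where 0.00592% of all clusters were higher in C5aR+ cells and 0.0947% lower. The moderated F test over the 3 populations called 0 members and 0.755% of all clusters. At an unadjusted p under 0.05 the members called were Samd9l between the LysoDC populations (1 of 32, 5.46% of all clusters), Irf9 between C5aR+ LysoDC and LysoMac (1 of 32, 6.19%), and Irf9, Oas2 and Samd9l between C5aR- LysoDC and LysoMac (3 of 32, 13.2%). Only Samd9l had an unadjusted p under 0.05 in the F test, as did 9.20% of clusters. Same-numbered arrays of C5aR+ LysoDC and LysoMac deviated together, and limma was also run with the array number as a block in every comparison. At an unadjusted p under 0.05, 3 members in place of 1 then differed between C5aR+ LysoDC and LysoMac (Irf9, Isg15 and Oas2, 8.13% of all clusters). Between the LysoDC populations 3 did in place of 1 (Irf7, Oasl2 and Samd9l, 6.85%). Between C5aR- LysoDC and LysoMac 8 did in place of 3 (Irf7, Irf9, Isg15, Oas2, Oasl1, Oasl2, Rsad2 and Samd9l, 15.8%). The F test gave 6 in place of 1 (Irf7, Isg15, Oas2, Oasl2, Rsad2 and Samd9l, 11.9%). With the block 0 members passed after adjustment.

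The median difference over the 32 members was 0.15 between C5aR+ and C5aR- LysoDC, with 24 members above 0, and 0.02 over all clusters. It was -0.05 between C5aR+ LysoDC and LysoMac, with 14 above 0, and -0.21 between C5aR- LysoDC and LysoMac, with 11 above 0, where all clusters had medians of -0.04 and -0.06. In the same order, 75.0%, 43.8% and 34.4% of members lay above 0, against 53.3%, 43.9% and 41.3% of all clusters. A single array sets the sign of the medians against LysoMac: without LysoMac array 3 they were 0.16 and 0.02. With each array centred on its median the one between C5aR+ LysoDC and LysoMac was 0.01, with 16 members above 0. Without C5aR- LysoDC array 2 the median between the LysoDC populations was 0.00. The highest population mean was that of LysoMac for 14 members, of C5aR+ LysoDC for 12 and of C5aR- LysoDC for 6.

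The intervals say how much difference the arrays leave room for. The median SE of a member's difference was 0.31 (n = 3 per population), against 0.20 over all clusters, and the median half-width of its 95% interval was 0.70. In each of the 3 comparisons 18 of 32 intervals lay wholly inside a 2-fold difference and 14 reached beyond it. Those of Eif2ak2, Irf1, Irf9, Stat2, Ifit2, Ifit3, Oas3, Mx1, Isg20, Ifitm3, Parp14, Trim30a and Ifi35 lay inside it in all 3 comparisons (13 members). Of these, Mx1 lay below the median of every array, and Eif2ak2 and Ifit2 lay below it on 2 arrays each. Less can be read from the intervals of such dim members. For each of the other members a 2-fold difference lay within the interval in at least 1 comparison and was not excluded there.

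**Figure D1:**
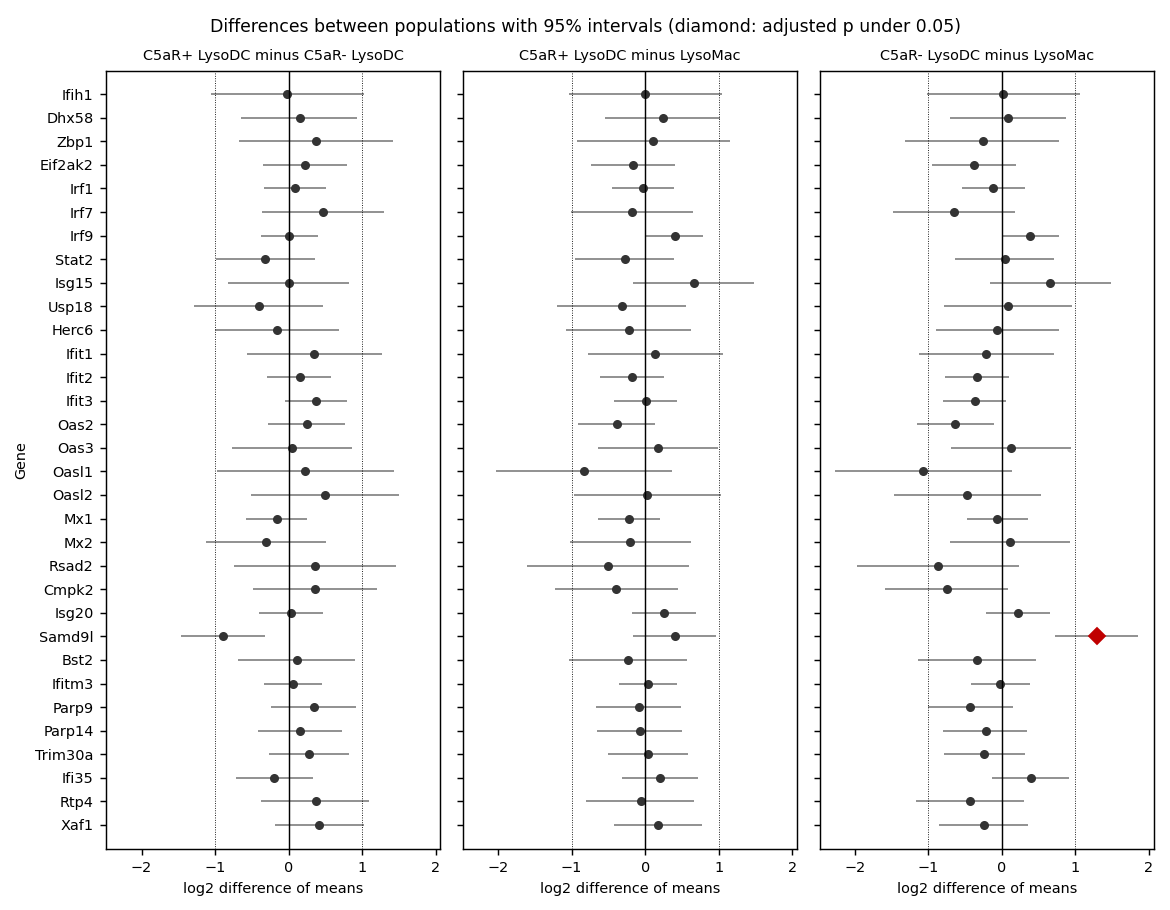
Differences of population means for the 32 measured interferon response genes (points, log2 scale) with 95% intervals (lines) in 3 comparisons, 3 arrays per population. Dotted lines mark 2-fold, and the diamond marks Samd9l, the 1 call, at 1.29 in C5aR- LysoDC minus LysoMac.

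Samd9l encodes a large cytoplasmic protein that restricts poxviruses and slows protein synthesis. It read 4.82, 4.34 and 4.40 on LysoMac arrays 1 to 3, 4.57, 5.10 and 5.10 on C5aR+ LysoDC arrays and 5.46, 6.30 and 5.69 on C5aR- LysoDC arrays. All C5aR- arrays lay above all arrays of both other populations, which overlapped each other. The rise from LysoMac to C5aR- LysoDC was 1.29 ± 0.25 (SE, n = 3 per population), or 2.45-fold (limma, adjusted p = 0.0442), with an interval of 0.72 to 1.86. Between the LysoDC populations it was 0.89 lower in C5aR+ cells (difference -0.89 ± 0.25, adjusted p = 0.450), and C5aR+ LysoDC differed from LysoMac by 0.40 ± 0.25 (adjusted p = 0.809). The call was lost without any single one of the 9 arrays, with adjusted p-values of 0.0550 to 0.152, while the difference then stayed between 1.05 and 1.47. In 7 of 20 other settings it passed, and over all 20 the adjusted p ran from 0.0103 to 0.152.

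The 4 sensors had small differences between population means and wide ranges among arrays. Ifih1 (MDA5, a sensor of double-stranded RNA) read 7.02, 6.28 and 8.16 in LysoMac, 7.10, 6.58 and 7.77 in C5aR+ LysoDC and 6.97, 6.99 and 7.55 in C5aR- LysoDC. Its population means were 7.15, 7.15 and 7.17, whereas the LysoMac arrays alone spanned 1.88, the widest range in that population together with that of Rsad2 (1.88). Array 3 was the highest in every population. Dhx58 (LGP2, which tunes the RNA sensors) lay between 5.02 and 6.29 over the 9 arrays, with differences between populations of 0.09 to 0.24. Zbp1, a sensor of Z-form nucleic acids that can trigger cell death, lay between 6.61 and 8.12, and Eif2ak2 (PKR, which halts translation when it binds double-stranded RNA) between 3.33 and 4.57. No sensor passed, and the largest difference among them was that of Eif2ak2, -0.38 ± 0.25 between C5aR- LysoDC and LysoMac (limma, adjusted p = 0.548).

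Of the transcription factors, Irf7, which amplifies interferon production once induced, read 8.11, 8.10 and 9.02 in LysoMac, 8.04, 7.84 and 8.81 in C5aR+ LysoDC and 7.47, 7.42 and 8.38 in C5aR- LysoDC. In each population arrays 1 and 2 lay close together and array 3 lay well above them, and the populations overlapped. The means of 8.41, 8.23 and 7.76 differed by 0.47 ± 0.37 between the LysoDC populations (adjusted p = 1.00) and by -0.65 ± 0.37 between C5aR- LysoDC and LysoMac (adjusted p = 0.486). The first difference was 0.18 without C5aR+ array 3 and 0.78 without C5aR- array 3, but leaving out 1 array unbalances the array numbers. These held 70.7% of the sum of squares of Irf7, against 28.8% for population and 0.515% for the rest. With the array number as a block Irf7 had an unadjusted p under 0.05 in both comparisons in limma. It passed in neither after adjustment (adjusted p = 0.347 between the LysoDC populations). Irf9, the DNA-binding partner of STAT2, read 6.70, 6.51 and 7.12 in LysoMac, 7.11, 7.22 and 7.20 in C5aR+ LysoDC and 7.07, 7.11 and 7.32 in C5aR- LysoDC. Only LysoMac array 3 reached the range of the LysoDC arrays. Against LysoMac, Irf9 differed by 0.40 ± 0.17 in C5aR+ LysoDC (limma, adjusted p = 0.801) and by 0.39 ± 0.17 in C5aR- LysoDC (adjusted p = 0.379), and these comparisons share the LysoMac arrays. Stat2 lay between 6.70 and 7.89 and was highest on LysoMac array 3, and Irf1, a factor that interferons of both types induce, stayed between 4.97 and 5.60.

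The ISG15 system attaches a small ubiquitin-like protein to other proteins. Isg15 itself read 7.74, 7.55 and 8.52 in LysoMac, 8.35, 8.53 and 8.91 in C5aR+ LysoDC and 8.02, 8.40 and 9.35 in C5aR- LysoDC. Again array 3 was the highest in each population, and the populations overlapped. The LysoDC means were equal at 8.59, and each differed from LysoMac (mean 7.94) by 0.66 ± 0.36 (adjusted p = 0.809 for C5aR+ and 0.477 for C5aR- LysoDC). Usp18, which removes ISG15 and dampens receptor signalling, and Herc6, the ligase that attaches ISG15 in mice, lay between 5.42 and 7.12 and between 5.28 and 6.91. Both were highest on array 3 in every population. Usp18 differed by -0.40 ± 0.39 between the LysoDC populations (adjusted p = 1.00), with no overlap between their arrays.

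The IFIT proteins bind foreign RNA and several, but not all, proteins of the OAS family activate an RNA-degrading enzyme. All 7 measured members of these families had a mean difference above 0 between C5aR+ and C5aR- LysoDC, from 0.05 (Oas3) to 0.50 (Oasl2), also after centring, quantile normalization and cyclic loess, and 0 passed in limma. Over all clusters 53.3% of differences lay above 0. Without C5aR- LysoDC array 2 only 4 of the 7 lay above 0, with Ifit1, Ifit2 and Oas3 below it, and 1 of the 7 fell below 0 without C5aR+ array 1 (Oasl1), C5aR+ array 3 or C5aR- array 1 (Oas3). In C5aR- LysoDC against LysoMac 1 of the 7 (Oas3) lay above 0. Ifit3 read 5.03, 5.45 and 5.04 in LysoMac, 5.04, 5.18 and 5.32 in C5aR+ LysoDC and 5.02, 4.48 and 4.91 in C5aR- LysoDC. Its C5aR- arrays lay just below all others, and the differences of 0.38 ± 0.19 from C5aR+ LysoDC (adjusted p = 0.993) and -0.37 ± 0.19 from LysoMac (adjusted p = 0.441) did not pass. Oas2 read 6.49, 5.93 and 6.69 in LysoMac, 6.01, 5.85 and 6.10 in C5aR+ LysoDC and 6.04, 5.38 and 5.81 in C5aR- LysoDC. LysoMac arrays 1 and 3 lay above all others, and array 2 lay among the LysoDC. Its difference of -0.63 ± 0.23 between C5aR- LysoDC and LysoMac had an interval of -1.15 to -0.10 and an adjusted p of 0.290 in limma.

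Oasl1, which in mice limits the translation of Irf7, had the largest negative difference of any member. It read 6.50, 6.21 and 8.01 in LysoMac, 6.70, 5.07 and 6.45 in C5aR+ LysoDC and 5.49, 5.77 and 6.26 in C5aR- LysoDC. LysoMac array 3 stood apart, and the other LysoMac arrays lay within the range of the LysoDC. The difference of -1.07 ± 0.53 between C5aR- LysoDC and LysoMac did not pass (adjusted p = 0.432), and it lay between -1.41 and -0.51 when single arrays were left out. The remaining members of these families were lowest or highest at 3.69 and 5.21 (Ifit1), 3.24 and 4.16 (Ifit2), 4.36 and 5.70 (Oas3) and 5.12 and 7.01 (Oasl2).

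Among the other antiviral effectors, Rsad2 (viperin, which makes a chain-terminating nucleotide) read 6.43, 5.35 and 7.23 in LysoMac, 6.25, 5.04 and 6.21 in C5aR+ LysoDC and 5.67, 4.98 and 5.76 in C5aR- LysoDC. Array 2 was the lowest in every population, and the population means were 6.34, 5.83 and 5.47. Cmpk2, a mitochondrial nucleotide kinase whose gene neighbours Rsad2, read 5.42, 6.82 and 5.38 in LysoMac, 5.23, 5.42 and 5.79 in C5aR+ LysoDC and 5.07, 4.82 and 5.46 in C5aR- LysoDC. It was thus highest on LysoMac array 2, where Rsad2 was at its lowest for that population. Neither passed between C5aR- LysoDC and LysoMac (Rsad2 -0.87 ± 0.49, adjusted p = 0.485, and Cmpk2 -0.75 ± 0.37, adjusted p = 0.428). Without LysoMac array 2 the difference of Cmpk2 was -0.28.

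Bst2 (tetherin), which holds budding viruses at the cell surface, read 10.29, 9.60 and 11.32 in LysoMac, 10.22, 10.13 and 10.15 in C5aR+ LysoDC and 9.90, 10.16 and 10.11 in C5aR- LysoDC. The LysoMac arrays spanned 1.72, against 0.10 in C5aR+ LysoDC, the narrowest range there together with that of Isg20 (0.10). Its means of 10.40, 10.17 and 10.06 did not differ beyond that spread (largest difference -0.34 ± 0.35, adjusted p = 0.703). Ifitm3, which blocks fusion of viruses in endosomes, was the steadiest member in LysoMac, with a range of 0.15, and its 9 values lay between 10.17 and 10.67. Mx1, a dynamin-like antiviral protein, lay below the median of every array, between 2.30 and 2.81, and little can be read from its differences. Mx2 lay between 3.61 and 5.10, and Isg20, an exonuclease, between 5.31 and 6.11.

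Of the members linked to ADP-ribosylation and ubiquitin, Parp9, which pairs with a ubiquitin ligase at sites of DNA damage, read 5.77, 5.00 and 5.93 in LysoMac, 5.83, 5.29 and 5.32 in C5aR+ LysoDC and 5.25, 5.23 and 4.94 in C5aR- LysoDC. All C5aR+ arrays lay above all C5aR- arrays by a narrow margin, with a difference of 0.34 ± 0.26 (adjusted p = 1.00), which was 0.16 without C5aR+ array 1. Parp14, an ADP-ribosyltransferase, lay between 6.24 and 7.29, and Trim30a, a regulator of Toll-like receptor signalling, between 4.75 and 5.57. Xaf1, a promoter of apoptosis, read 5.56, 4.67 and 5.70 in LysoMac, 5.70, 5.43 and 5.34 in C5aR+ LysoDC and 5.34, 4.95 and 4.93 in C5aR- LysoDC. One value, 5.34, was read in both LysoDC populations, and the difference of 0.42 ± 0.27 between them did not pass (adjusted p = 1.00). Rtp4, a receptor chaperone with antiviral activity, lay between 5.34 and 6.82, and Ifi35 between 5.90 and 6.93 (its second, dimmer cluster lay between 3.72 and 5.04). The clusters of Ifi35 went in opposite directions. Between the LysoDC populations the used cluster differed by -0.20 and the second by 0.22. Against LysoMac the used cluster differed by 0.20 (C5aR+) and 0.40 (C5aR-), and the second by -0.16 and -0.38. The second was highest on array 2 in LysoMac (5.04) and on array 1 in C5aR- LysoDC (4.44). The array order given for Ifi35 below is that of the used cluster.

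**Figure D2:**
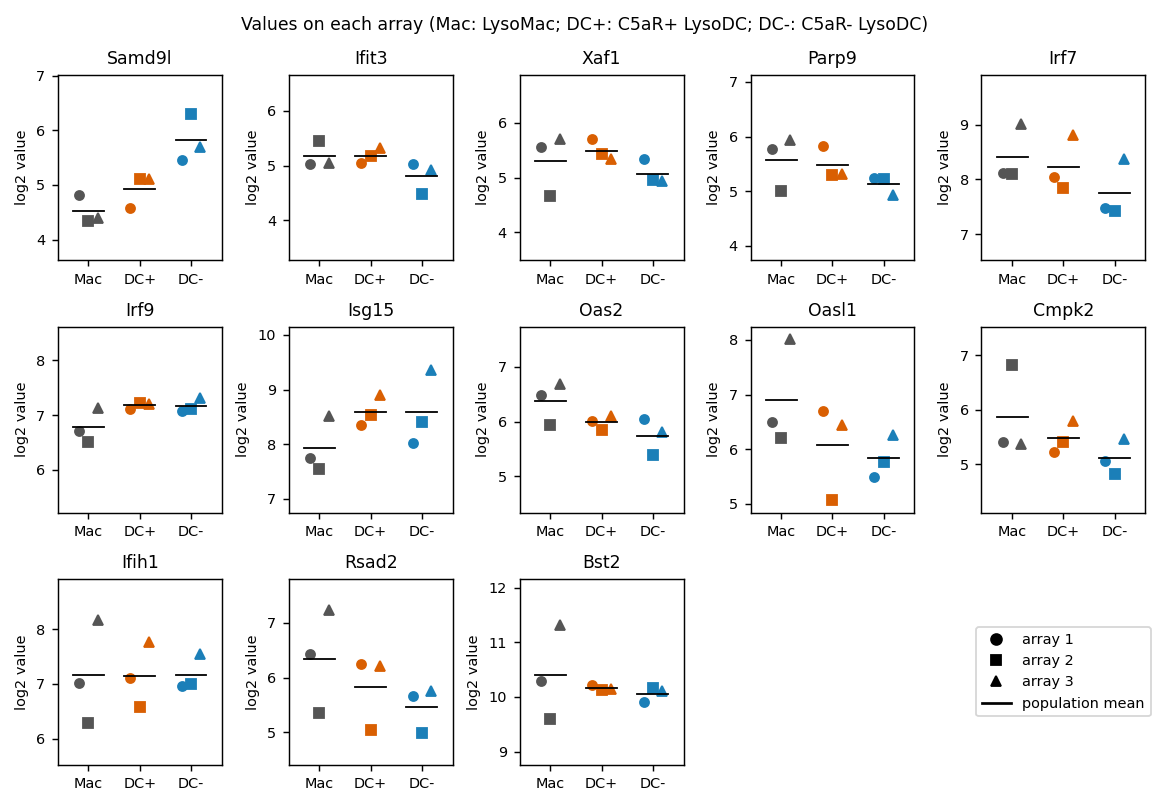
Log2 value of 13 members on each array, with symbols for array numbers 1 to 3 and a line at each population mean (Mac, LysoMac; DC+, C5aR+ LysoDC; DC-, C5aR- LysoDC). Every panel spans the same number of log2 units. Samd9l separates C5aR- LysoDC from the rest, whereas Irf7, Isg15 and Ifih1 are highest on array 3 in every population.

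No overlap between the arrays of 2 populations was seen for 4 members between C5aR+ and C5aR- LysoDC (Ifit3 and Parp9 higher, Usp18 and Samd9l lower in C5aR+ cells; 12.5% of members, against 10.2% of all clusters). It was seen for 0 members between C5aR+ LysoDC and LysoMac (7.89% of all clusters) and for 2 between C5aR- LysoDC and LysoMac (Samd9l higher and Ifit3 lower; 6.25% of members, against 14.2% of all clusters). These shares lie near or below the background, and they moved with the normalization.

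Within each population most members were higher on array 3 and lower on array 2. On array 3 of each population, 28 of 32 members lay above their population mean. On array 2 this held for 3 members in LysoMac and for 6 in each LysoDC population. The median deviation of the members from their population mean was -0.03, -0.41 and 0.50 on LysoMac arrays 1 to 3, -0.04, -0.11 and 0.16 in C5aR+ LysoDC and -0.03, -0.22 and 0.19 in C5aR- LysoDC. The brighter clusters (those with a mean above 3.50, the median of cluster means) had medians of -0.09 to 0.05 on the same arrays. The array number comes from the sample titles, and the labels do not say that it marks a shared day, batch or animal.

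**Figure D3:**
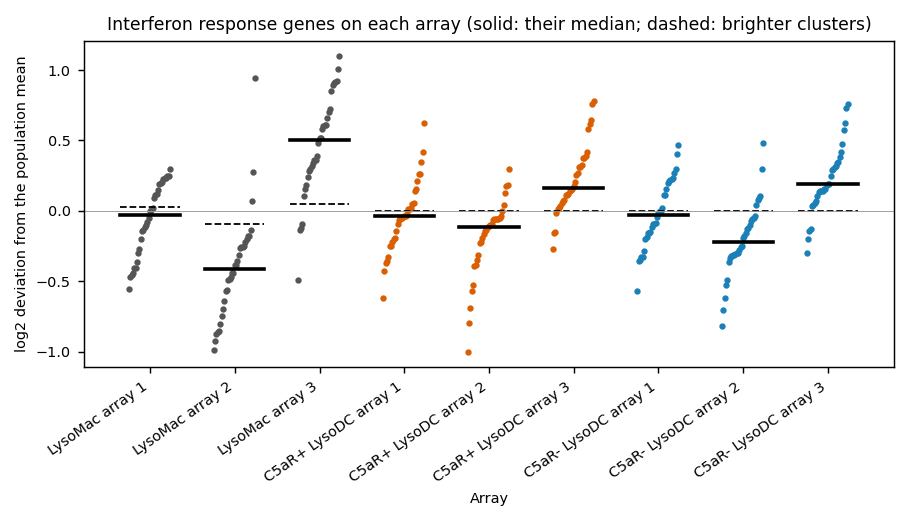
Deviation of each interferon response gene (points, 32 per array) from its population mean, on the log2 scale, for each of the 9 arrays. Solid lines are the medians of the members and dashed lines those of the brighter clusters (mean above 3.50). The members' median is above 0 on array 3 of every population (0.50, 0.16 and 0.19) and below 0 on array 2 (-0.41, -0.11 and -0.22).

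Counted by gene, 12 members were highest on array 3 in all 3 populations: Ifih1, Zbp1, Irf7, Isg15, Usp18, Herc6, Oas3, Oasl2, Mx2, Isg20, Parp14 and Ifi35 (37.5%, against 5.14% of all clusters and 9.57% of the brighter ones). Array 2 was the lowest in all 3 populations for 9 members (28.1%, against 3.15% and 4.93%). No member was highest on array 1, or on array 2, in all 3 populations. The arrays also differ in their overall distribution, with an interquartile range of 2.16 on LysoMac array 2 and 2.68 on LysoMac array 3, against 2.48 on LysoMac array 1. Quantile normalization makes those distributions equal, and the median deviations on array 3 were then 0.30 (LysoMac), 0.14 (C5aR+) and 0.18 (C5aR-), with 27, 24 and 28 of 32 members above their population mean.

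**Figure D4:**
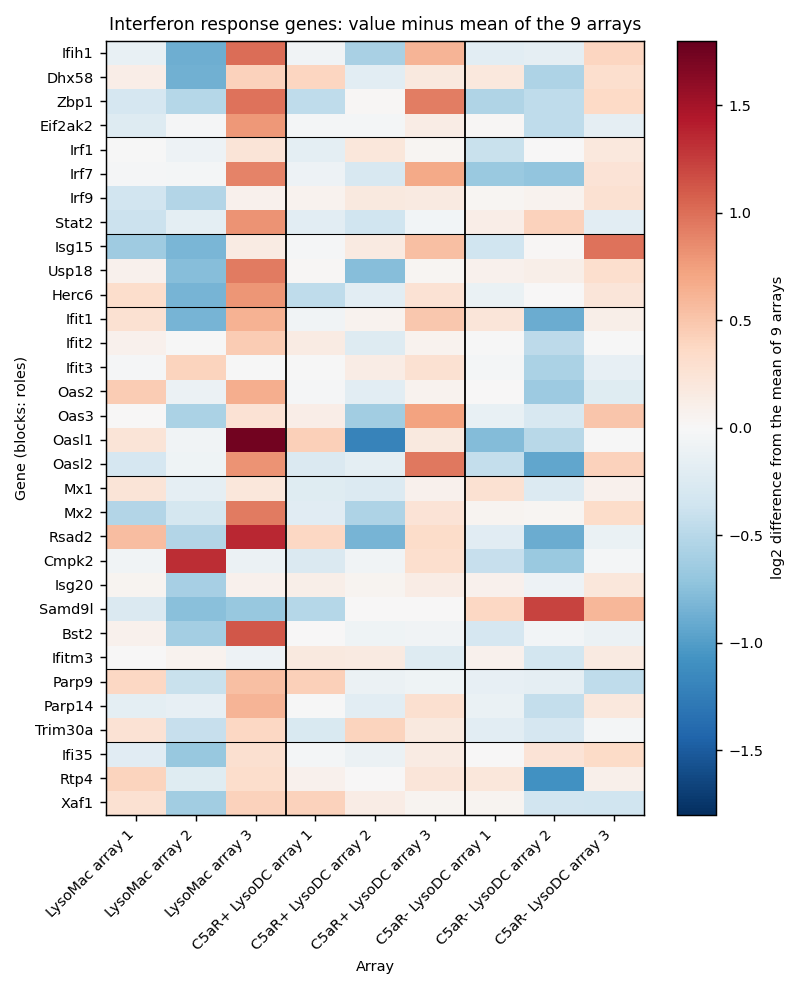
Log2 value of each of the 32 measured interferon response genes minus its mean over the 9 arrays (colour), with genes in rows grouped by role and arrays in columns grouped by population. LysoMac array 3 is the reddest column (median difference from the mean of 9 arrays 0.49) and LysoMac array 2 the bluest (median -0.41), while Cmpk2 and Ifit3 are highest on LysoMac array 2.

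The sum of squares of each member over the 9 arrays was divided between population, array number and the rest. The median share of array number was 51.6% and that of population 20.6%, whereas over all clusters these medians were 26.1% and 25.6% (26.7% and 28.7% over the brighter clusters). The share of array number was the larger one for 26 of 32 members, and for 50.4% of all clusters. It was highest for Oas3 (87.7%), Zbp1 (85.5%), Ifih1 (83.4%) and Dhx58 (81.4%). The share of population was highest for Samd9l (79.0%), Irf9 (56.9%), Oas2 (51.5%) and Ifit3 (46.6%). After quantile normalization the median share of array number over the members was 42.2%, and that of population 27.0%, with array number the larger share for 19 of 32 members and 47.8% of all clusters. After cyclic loess this held for 20 members and 48.3% of clusters.

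**Figure D5:**
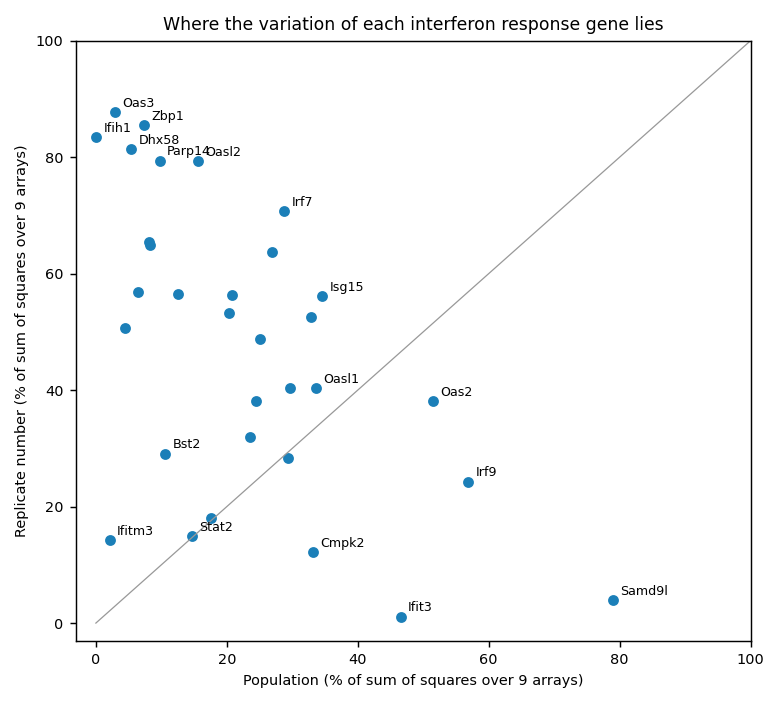
Share of each member's sum of squares over 9 arrays that lies between populations (horizontal axis) and between array numbers (vertical axis), both in percent. Each point is 1 of 32 genes and the line marks equal shares. Most points lie above the line, among them Oas3 (87.7% with array number), and Samd9l lies far below it (79.0% with population).

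As a description over the 9 arrays, without a test, the deviations of 2 members from their population means correlated at 0.41 on average over all pairs, against 0.018 over all pairs of clusters. After quantile normalization the members' mean was 0.26. All pairs share the same arrays. Each member was also set against the mean deviation of the other 31. The median correlation was 0.79, with 21 members above 0.7, led by Ifih1 (0.97), Parp14 (0.93), Rsad2, Usp18 and Ifi35 (0.89 each). Those below 0.3 were Ifit3 (-0.13), Ifitm3 (-0.17), Samd9l (-0.19) and Cmpk2 (-0.41). The spread of members within a population was wider in LysoMac (median SD 0.52, with 15 members spanning more than 2-fold) than in C5aR+ LysoDC (0.29 and 6) and C5aR- LysoDC (0.30 and 4). Over all clusters the median SDs were 0.28, 0.19 and 0.18.

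Genes upstream of the members were read from 3 lists. Of 12 interferon ligands and receptors 0 were called in any comparison in limma, with 1, 1 and 3 at an unadjusted p under 0.05. In the same order (between the LysoDC populations, then C5aR+ and C5aR- LysoDC against LysoMac) these shares over all clusters were 5.46%, 6.19% and 13.2%. Ifnar2, a subunit of the type I interferon receptor, read 10.78, 10.33 and 10.59 in LysoMac, 10.65, 10.50 and 10.34 in C5aR+ LysoDC and 10.07, 9.43 and 9.87 in C5aR- LysoDC. Its C5aR- arrays lay below all others, by 0.78 against LysoMac (difference -0.78, adjusted p = 0.112) and by 0.71 against C5aR+ LysoDC (adjusted p = 0.428). The type I interferon gene Ifna2 differed by -0.72 and -0.85 in C5aR+ and C5aR- LysoDC against LysoMac (adjusted p = 0.763 and 0.174). Of 9 measured genes of JAK-STAT signalling and its inhibitors 0 were called in any comparison in limma. At an unadjusted p under 0.05 there were 1, 0 and 3 (5.46%, 6.19% and 13.2% of all clusters). The kinase gene Jak2 differed by 1.47 (adjusted p = 0.209) and Stat3 by 0.92 (adjusted p = 0.255) between C5aR- LysoDC and LysoMac.

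Among 15 sensors, adaptors and kinases that lead to interferon production, Tlr7 and Tlr3, endosomal receptors for single- and double-stranded RNA, fell in C5aR- LysoDC against LysoMac and 0 rose (0.405% of all clusters were called lower), with 5 of 15 at an unadjusted p under 0.05 (13.2% of all clusters). Tlr7 read 8.19, 7.49 and 8.31 in LysoMac, 7.97, 6.95 and 7.81 in C5aR+ LysoDC and 6.35, 5.19 and 6.09 in C5aR- LysoDC. All C5aR- arrays lay below all others, and the difference from LysoMac was -2.12 ± 0.37 (limma, adjusted p = 0.0305). The difference of Tlr3 was -0.87 ± 0.17 (limma, adjusted p = 0.0396). In the other comparisons 0 of the 15 were called in limma, with 4 between the LysoDC populations (5.46% of all clusters) and 0 against LysoMac in C5aR+ LysoDC (6.19%) at an unadjusted p under 0.05. A further list held 38 measured interferon-induced genes that are not members. In C5aR- LysoDC against LysoMac 1 of them rose (1.13% of all clusters), Ifitm2 by 0.80 (adjusted p = 0.0375), and 1 fell (0.405%), the helicase gene Ddx60 (difference -1.33, adjusted p = 0.0379). Their median differences were -0.04, -0.01 and -0.06 in the 3 comparisons, and 0 passed in the other 2 in limma. At an unadjusted p under 0.05 there were 4 between the LysoDC populations (5.46% of all clusters), 8 in C5aR+ LysoDC against LysoMac (6.19%) and 12 in C5aR- LysoDC against LysoMac (13.2%).

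The same array pattern was seen in those 38 genes. Their median deviation from the population mean was 0.33, 0.13 and 0.16 on array 3 of LysoMac, C5aR+ and C5aR- LysoDC and -0.45, -0.16 and -0.09 on array 2. Of them 14 were highest on array 3 in all 3 populations, among them Gbp5, Igtp, Irgm1, Adar, Pml and Rnf213. This held for 5.14% of all clusters and 9.57% of the brighter ones. Macrophage markers ran alongside, with medians of 0.31, 0.18 and 0.29 on array 3 and -0.26, -0.31 and -0.18 on array 2, and 3 of 9 (Adgre1, Cd68 and C1qa) were highest on array 3 in all populations. Their summed linear level ran from 6419 to 12346 in LysoMac, from 7315 to 10627 in C5aR+ LysoDC and from 4601 to 6290 in C5aR- LysoDC. On array 3 of LysoMac, C5aR+ and C5aR- LysoDC, monocyte markers had medians of -0.23, 0.77 and 0.25 and plasma cell markers of -0.12, 0.63 and 0.25. The genes of JAK-STAT signalling had medians of 0.46, 0.20 and 0.13 there, and the upstream sensors and adaptors of 0.31, 0.17 and 0.09, with 5 of 15 highest on array 3 in all populations. Their part in the array pattern was not tested.

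The part of other cell markers in the array pattern was not tested either. On array 3 of LysoMac, C5aR+ and C5aR- LysoDC, markers of T and NK cells had medians of -0.31, -0.13 and -0.06. Those of plasmacytoid dendritic cells, the cells known for making large amounts of interferon, had medians of -0.06, -0.13 and -0.27. Of 11 measured plasmacytoid markers 0 were highest there in all populations. Their summed level ran from 413 to 692 in LysoMac, from 508 to 600 in C5aR+ LysoDC and from 455 to 921 in C5aR- LysoDC, and 0 of 11 lay below every array median. Of these markers Atp1b1 (by 3.23) and Cd209d (by 1.35) rose in C5aR- LysoDC against LysoMac, the comparison in which Samd9l rose (limma, adjusted p = 0.00304 and 0.0253). Over all 11 markers 7 differences lay above 0, the median was 0.24, and 0 were called lower. Those below 0 were Lair1 (-1.07), Siglech (-0.73), Ccr9 (-0.54) and Ly6d (-0.06). Conventional dendritic cell markers moved in C5aR- LysoDC against LysoMac too, with 6 of 10 rising (1.13% of all clusters were called higher). Their summed levels were 2393 to 4374 in LysoMac and 7458 to 8467 in C5aR- LysoDC. Of the 6, H2-Aa (by 2.54) and H2-Ab1 (by 2.39) encode MHC class II, a target of the sort antibodies. Their levels, and the summed level they enter, may depend on the gates. H2-Ab1 alone read 9.59 to 9.71 in LysoMac and 11.93 to 12.19 in C5aR- LysoDC. Single markers of other types rose there as well, namely Epcam, Cdh1 and Gp2 of epithelial and M cells, Blk and Cr2 of B cells, Lum and Kdr of stromal and endothelial cells, Mmp9 and Trem1 of neutrophils, Jchain of plasma cells and Plac8 of monocytes. None of the other measured markers of these lists passed in this comparison, and the list medians were 0.12 for epithelial and M cells (7 of 12 above 0), 0.69 for B cells (7 of 9), 0.03 for stromal and endothelial cells (5 of 10), 0.01 for neutrophils (5 of 10), 0.23 for plasma cells (6 of 8) and 0.85 for monocytes (5 of 7). Of the macrophage markers 4 of 9 fell (Mertk, C1qb, C1qc and Apoe), where 0.405% of all clusters were called lower. Their list median was -0.88, with 2 of 9 above 0, namely Fcgr1 (1.81) and Adgre1 (0.60), neither of them called. The part of these cell markers in the difference of Samd9l was not tested. The other marker lists held 0 genes (B cells, T and NK cells, epithelial and M cells, stromal cells), 1 gene each (neutrophils, monocytes) and 2 genes each (plasma cells, conventional dendritic cells) that were highest on array 3 in all populations.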

How the data were processed

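Expression was measured on 9 Affymetrix whole-transcript arrays. The deposited values are log2 values per transcript cluster, made by the authors with RMA and Affymetrix Power Tools, per the submitters' processing notes; their versions and settings were not stated. All 33793 clusters were tested without further normalization. Of them 23521 carried 1 gene symbol, 1814 several and 8458 none, and of several clusters of a gene the one with the highest mean over 9 arrays was used. Array medians ran from 3.39 to 3.65, and the number of arrays limits the precision.

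Groups came from the sample titles; for arrays 2 and 3 of C5aR- LysoDC another label field names different receptors, and the title was followed. Differences were tested, two-sided, with limma 3.58.1 (lmFit and eBayes, R 4.3.3) in 1 model of all 9 arrays that has a mean for each population and 6 residual degrees of freedom, with Benjamini-Hochberg adjustment over all clusters and a threshold of 0.05. It was tested on simulated data with independent noise in every cluster and array, which lack the array pattern described here. For LysoMac and C5aR+ LysoDC, deviations from the population means correlated between same-numbered arrays (r = 0.16, 0.26 and 0.41 over all clusters); no label states a pairing. Members and gene lists were chosen with earlier results of these data known. Values on every array are given for members that passed, the 5 with the smallest p per comparison, the 4 with the widest range in a population, and Bst2. In the other lists, called genes are named, or the 2 with the smallest p where none was. The 4 gene lists of the pathway and 10 of cell markers were matched by symbol or synonym in RefSeq. Alternatives were a replicate block, other normalizations, filters, variance models and leaving out arrays.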

Additional observations from a re-analysis of the deposited data

How the results depend on the processing

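The count of members past the threshold between C5aR- LysoDC and LysoMac, 1 (Samd9l), became 0 under a replicate block (Samd9l then had an adjusted p of 0.0535), with an intensity trend (0.0531), with 1 weight per population (0.0850) and with only the 2 populations compared (0.111), and 0 to 0 when each array was left out. It was 5 with array weights (Samd9l, Irf9, Oas2, Isg15 and Parp9), and the F test over 3 populations then gave 3 in place of 0; these weights gave LysoMac array 1 a weight of 7.13 and LysoMac arrays 2 and 3 weights of 0.24 and 0.35, so that the population rests mostly on 1 array. Counts for the other comparisons were 0 under every setting run, leaving out each array included, and the block changed no other call of a member. In the comparisons with C5aR- LysoDC the same-numbered arrays deviated together less evenly (r over all clusters was 0.23, -0.03 and 0.20 against C5aR+ LysoDC, 0.17, -0.11 and 0.13 against LysoMac). Over the members r was 0.29, 0.23 and 0.69 between the LysoDC populations. With the block the members at an unadjusted p under 0.05 were 3 in place of 1 between the LysoDC populations (6.85% of all clusters), 8 in place of 3 in C5aR- LysoDC against LysoMac (15.8%) and 6 in place of 1 in the F test (11.9%), and the calls over all clusters were 59 in place of 34, 709 in place of 518 and, for C5aR+ LysoDC against LysoMac, 20 in place of 17. The standard errors and intervals in the text are those without the block. In the other lists, Batf3 (limma with the block, adjusted p = 0.0561) and Kdr (0.0509) were lost in C5aR- LysoDC against LysoMac. Between the LysoDC populations Tlr7 (0.0145), Atp1b1 (0.0293) and Ccr7 (0.0497) passed in addition, and Cd209d (0.0627) was lost. Of the further interferon-induced genes, Oas1g, Ifitm1, Gbp7, Lgals3bp and Ms4a4c passed in addition in C5aR- LysoDC against LysoMac. The neutrophil marker Csf3r (0.0302) did so too. When each array was left out, the median differences ran from 0.00 to 0.26 between the LysoDC populations, from -0.23 to 0.16 for C5aR+ LysoDC against LysoMac and from -0.38 to 0.02 for C5aR- LysoDC against LysoMac. In settings added after seeing the data, members without overlap between the LysoDC populations were 2 with each array centred on its median in place of 4. Between C5aR- LysoDC and LysoMac they were 1 after centring, 5 after quantile normalization and 4 after cyclic loess in place of 2, and between C5aR+ LysoDC and LysoMac 3 after either normalization in place of 0. With 3 arrays per population, whether a difference passed depended on its spread as well as its size.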
